A study of Sminthopsis crassicaudata with 9 samples.

Results

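In the face of newborn fat-tailed dunnarts, 28795 of 108146 reproducible H3K4me3 peaks (26.6%) overlapped H3K27ac only in part. They were selected on the peak intervals of replicate 1. A peak needed a MACS2 q-value under 0.05 and a replicate 2 partner sharing at least 50% of either length. It also had to share at least 1 base with an equally defined H3K27ac peak, and no such peak could share at least 50% of both lengths. Of the other H3K4me3 peaks, 57685 (53.3%) formed a reciprocal pair with H3K27ac, sharing at least 50% of both lengths, and 21666 (20.0%) shared no base with it. The study at first counted reciprocal pairs and H3K4me3 alone as promoters and H3K27ac alone as enhancers. Under that definition a peak with a partial overlap belongs to neither class. For its later analyses the study kept only the promoters of a cluster around the TSS. Its own number of reproducible H3K4me3 peaks is smaller than the 108146 counted here. Among the 28795, H3K27ac was the longer peak at 24563 (85.3%), H3K4me3 was the longer at 4230 (14.7%), and 2 had equal lengths.

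The fat-tailed dunnart (*Sminthopsis crassicaudata*) is a mouse-sized carnivorous marsupial whose young are born with a functional mouth and otherwise embryonic features. H3K4me3 and H3K27ac were profiled by ChIP-seq in craniofacial tissue of young under 24 hours old, in 2 replicates per mark with an input of the same chromatin, and the labels give 26 heads for replicate 1 and 27 for replicate 2, a sum that differs from the number of young in the study's methods. RNA of the face at birth was sequenced in 3 libraries, each a pool of 2 young. The labels name no treatment, strain or sex, and tissue and age do not vary between samples. Each ChIP replicate is therefore a mixture of animals and of cell types, and the 2 marks at a place need not come from the same cells.

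Trimethylation of lysine 4 of histone H3 is set by the SET1 and MLL (KMT2) methyltransferases and is strongest just downstream of active or poised transcription start sites (TSS). Acetylation of lysine 27 is set by EP300 and CREBBP and marks active promoters and active enhancers. The same lysine 27 can instead be methylated by Polycomb complexes, and promoters of developmental regulators that carry H3K4me3 with little acetylation are well known from embryonic tissue.

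For H3K4me3, 156428 peaks were listed in replicate 1 and 158331 in replicate 2, and for H3K27ac 200070 and 200992, each with its fold enrichment over input and without read totals. These lists do not give the depth behind a peak length, and its part in the lengths below was not tested. Facial mesenchyme markers (7 of 7), surface epithelium markers (5 of 5 annotated) and muscle markers (3 of 3) were over 1 TPM, the transcripts of a gene scaled to gene length and library total, in all 3 libraries. So were neuronal (4 of 4), cartilage (2 of 2), endothelial (2 of 2 annotated), melanocyte and glia (3 of 3) and blood or immune markers (3 of 4, without PTPRC, a pan-leukocyte gene, at a mean of 0.713 TPM). In bulk tissue a low level of a transcript can mean few cells of a type or little RNA per cell, which cannot be told apart. Peaks and genes are not replicates, and p-values over them describe these pools.

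The partial overlap mostly had the form of a short H3K4me3 peak inside a long H3K27ac peak. H3K4me3 lay wholly inside H3K27ac at 19020 peaks (66.1%), with a median length of 661 bp against 2977 bp for its H3K27ac partner. The opposite form, H3K27ac wholly inside H3K4me3, was found at 2662 peaks (9.24%), with medians of 1304.5 bp for H3K4me3 and 456 bp for H3K27ac. At the remaining 7113 (24.7%) each peak stuck out beyond the other, and among them H3K27ac was the longer at 5543 and H3K4me3 at 1568. One peak was at least 2 times as long as the other at 92.4% of the 28795, a description that follows from the selection, since a peak inside another with less than 50% shared must be under 50% of its length. The H3K4me3 peaks add up to 32.5 Mb, of which 86.6% lay under H3K27ac.

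**Figure D1:**
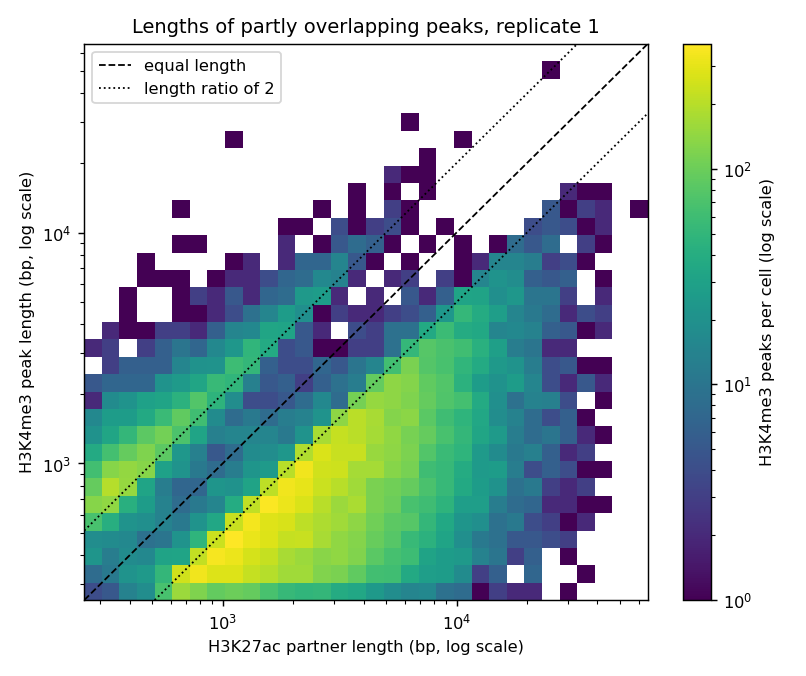
Length of each partly overlapping H3K4me3 peak (vertical axis, bp, log scale) against the length of its H3K27ac partner (horizontal axis, bp, log scale) in replicate 1, with the colour giving the number of peaks per cell on a log scale. Of the 28795 peaks, 24563 lie below the dashed line of equal length and 4230 above it, and most lie outside the dotted lines of a length ratio of 2.

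Several short H3K4me3 peaks often shared 1 long H3K27ac peak. Of the 24563 peaks with the longer H3K27ac, 15508 (63.1%) sat on an H3K27ac peak that overlapped at least 2 H3K4me3 peaks, and 2545 (10.4%) on one that overlapped at least 4. Together, all H3K4me3 peaks covered at least 50% of the H3K27ac partner at 13251 of them (53.9%). The same H3K27ac peak formed a reciprocal pair with another H3K4me3 peak at 3345 (13.6%). In the other direction, 1334 of the 4230 peaks with the longer H3K4me3 (31.5%) overlapped at least 2 H3K27ac peaks, and at 1128 (26.7%) all H3K27ac peaks together covered at least 50% of H3K4me3.

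By median over all peaks of a form, the longer mark was also the more enriched one. Where H3K27ac was the longer peak, the median H3K4me3 fold enrichment over input was 3.98 in replicate 1 and 4.57 in replicate 2, and that of the H3K27ac partner was 7.08 and 7.20. Where H3K4me3 was longer, H3K4me3 stood at medians of 5.03 and 5.47 and H3K27ac at 3.903 and 4.32. Reciprocal pairs had medians of 5.03 and 5.32 for H3K4me3 and 6.45 and 6.55 for H3K27ac. H3K4me3 had the higher fold of both marks at 73.2% (replicate 1) and 68.7% (replicate 2) of peaks with the longer H3K4me3, against 7.63% and 15.3% of those with the longer H3K27ac. The share was 85.4% and 80.3% where H3K27ac lay inside H3K4me3, but 52.4% and 48.6% at the 1568 staggered peaks with the longer H3K4me3. Medians of these staggered peaks were 4.18 and 4.48 for H3K4me3 and 4.13 and 4.61 for H3K27ac, so the order turned in replicate 2. Length and fold come from the same reads, and these values are a description with no test.

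Replicate 2 gave a further measure, namely the class of the same H3K4me3 peak on replicate 2 intervals. The selection required a replicate 2 partner for the peaks of both marks, so this class is not independent of it. Few changes to or from no shared base follow in part from that rule. Of the 28795 peaks, 13230 (45.9%) again overlapped H3K27ac in part, against 22.7% of all 108146 reproducible peaks. A further 15273 (53.0%) formed a reciprocal pair in replicate 2 and 292 (1.01%) shared no base with H3K27ac. Of reciprocal pairs 80.9% kept their class, against 57.5% of all peaks that were reciprocal in replicate 2, and of peaks without H3K27ac 97.0%, against 19.8%. Repeatability fell toward the limit of 50%: the share that was again partial was 58.9% where the smaller of both shared fractions was under 10%, 48.6% at 20 to 30% and 35.7% at 40 to 50%. There were 4038 peaks with a smaller shared fraction of 45% or more and 4332 reciprocal pairs under 55%. Just inside the limit, among peaks at a TSS, were ATP6V1G2 (49.94%), OLIG1 (49.85%), CEP295 (49.82%), KCNS2 (49.80%) and PEX14 (49.80%), and just outside it were TRPM2 (50.0%), RNF10 (50.02%), the shared peak of BCCIP and UROS (50.05%) and TRNAT-UGU-2 (50.07%).

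**Figure D2:**
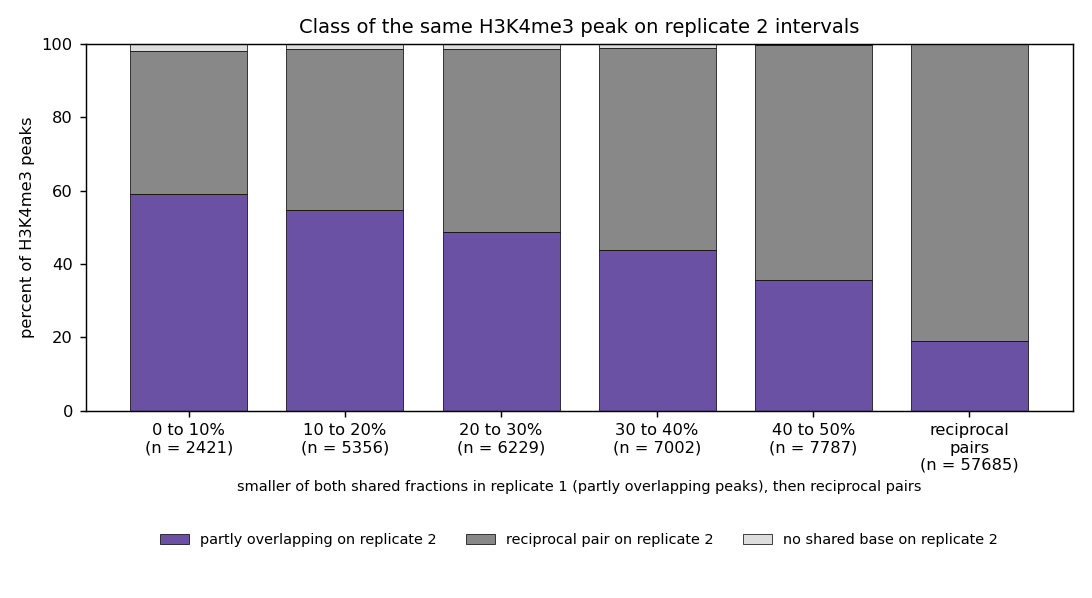
Percent of H3K4me3 peaks (vertical axis) in each class on replicate 2 intervals, for partly overlapping peaks grouped by the smaller of both shared fractions in replicate 1 (horizontal axis) and, at the right, for reciprocal pairs. The share that is partly overlapping again runs from 58.9% in the lowest group to 35.7% in the highest, against 19.0% of reciprocal pairs.

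Which mark was longer was kept at a larger share of peaks than the class. The longer mark has fewer possible outcomes and the selection favours unequal lengths, so these shares do not rank their stability. Among the 28483 peaks with an H3K27ac partner of different length in replicate 2, the same mark was longer at 23577 (82.8%), against 73.7% of all H3K4me3 peaks with a partner in both replicates. The longer H3K27ac held at 85.6% and the longer H3K4me3 at 66.0%, which is below the 73.7% of all such peaks. The position was kept at 67.4% of peaks with H3K4me3 inside H3K27ac, at 54.8% with H3K27ac inside H3K4me3 and at 40.1% of staggered peaks.

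Partly overlapping peaks were mostly away from gene starts. Distance was measured from the peak edge to the nearest TSS of 21703 gene models, and 35 peaks on scaffolds without a gene have none. A TSS was covered by 1030 peaks (3.58%), against 10.9% of all reproducible H3K4me3 peaks and 18.4% of reciprocal pairs, and 25675 (89.3%) lay over 3 kb from one. The median distance was 27.6 kb, against 22.8 kb for reciprocal pairs, and a peak with a partial overlap was the farther in 54.4% of such comparisons (two-sided Mann-Whitney, 28760 against 57579 peaks, adjusted p = 4.44e-99). Peaks without H3K27ac were much farther, at a median of 107 kb, and a partly overlapping peak was the farther in 28.3% of comparisons with them (adjusted p below what the software can represent). The order against reciprocal pairs rests on peaks near a TSS: among peaks over 3 kb from one, the medians were 52.0 kb with the longer H3K4me3, 31.7 kb with the longer H3K27ac and 40.2 kb for reciprocal pairs, with no test. Partly overlapping peaks were gathered at middle distances: 39.5% lay 10 to 50 kb from a TSS, against 30.9% of reciprocal pairs, and 17.7% over 100 kb, against 19.6%.

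The share of peaks at a TSS moved with peak length in both classes. Among H3K4me3 peaks of 500 to 1000 bp, 1.23% of partly overlapping peaks and 2.28% of reciprocal pairs covered a TSS. At 2000 to 4000 bp the shares were 11.04% and 47.0%, and at 4000 bp or more 34.2% and 51.1%. The share was thus lower for partial overlaps in peaks of like length, but under 500 bp it was 1.02% against 0.770%. Fold enrichment moved with it, at replicate 1 medians of 5.75 for partly overlapping peaks and 21.9 for reciprocal pairs of 2000 to 4000 bp, and its part in the difference was not tested.

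Both forms of partial overlap differed in where they lay. Peaks with the longer H3K4me3 covered a TSS in 387 cases (9.20%), against 643 (2.62%) with the longer H3K27ac. Their H3K4me3 peaks were also longer, at medians of 1222.5 against 674 bp. At like H3K4me3 length the shares were 0% against 1.04% under 500 bp and 1.10% against 1.26% at 500 to 1000 bp. In longer peaks they were 4.76% against 2.78% at 1000 to 2000 bp, 19.2% against 7.84% at 2000 to 4000 bp and 44.3% against 27.9% from 4000 bp. Peaks with the longer H3K4me3 were also more often remote, with 29.7% over 100 kb from a TSS against 15.7%, and medians of 35.9 kb and 26.7 kb. A peak with the longer H3K4me3 was the farther in 54.9% of comparisons (Mann-Whitney, 4205 against 24553 peaks, adjusted p = 3.28e-24). With TSS of genes with a symbol only, the medians were 67.3 kb and 36.0 kb, and that of peaks without H3K27ac was 212 kb. Beyond 3 kb from any TSS, 41.9% of peaks with the longer H3K4me3 and 60.8% with the longer H3K27ac lay wholly inside a gene model, that is, in its exons or introns, against 51.7% of reciprocal pairs and 25.6% of peaks without H3K27ac. The H3K27ac partner itself covered a TSS at 2305 of the 24563 peaks with the longer H3K27ac (9.38%), and at 1684 of these the H3K4me3 peak did not reach that TSS.

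Around the TSS, the longer mark reached further in both forms, which follows from how the forms were split. Where H3K4me3 was longer, its peak ran a median of 1017 bp upstream and 1942 bp downstream of the TSS, and the H3K27ac partner 290.5 bp upstream and 849 bp downstream. The H3K27ac partner did not always reach the start site: it covered the TSS at 57.9% of the 342 peaks that cover exactly 1 TSS. Where H3K27ac was longer, H3K4me3 ran 539 bp upstream and 881 bp downstream, H3K27ac 1332 bp and 2763 bp, and H3K27ac covered the TSS at 96.3% of 599. Over all 941 such peaks the centre of H3K27ac lay downstream of that of H3K4me3 at 512 and upstream at 429, or 54.4% downstream (two-sided exact binomial test, adjusted p = 0.00898), against 37.9% of all H3K4me3 peaks with H3K27ac at 1 TSS. On replicate 2 intervals it was 52.1% (420 of 806). That figure joins opposite forms: it was 41.2% where H3K4me3 was longer and 61.9% where H3K27ac was longer, and 43.5% and 57.2% on replicate 2 intervals. The summits of both marks lay close together, at a median gap of 190 bp for the longer H3K4me3, 556 bp for the longer H3K27ac and 85 bp for reciprocal pairs.

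**Figure D3:**
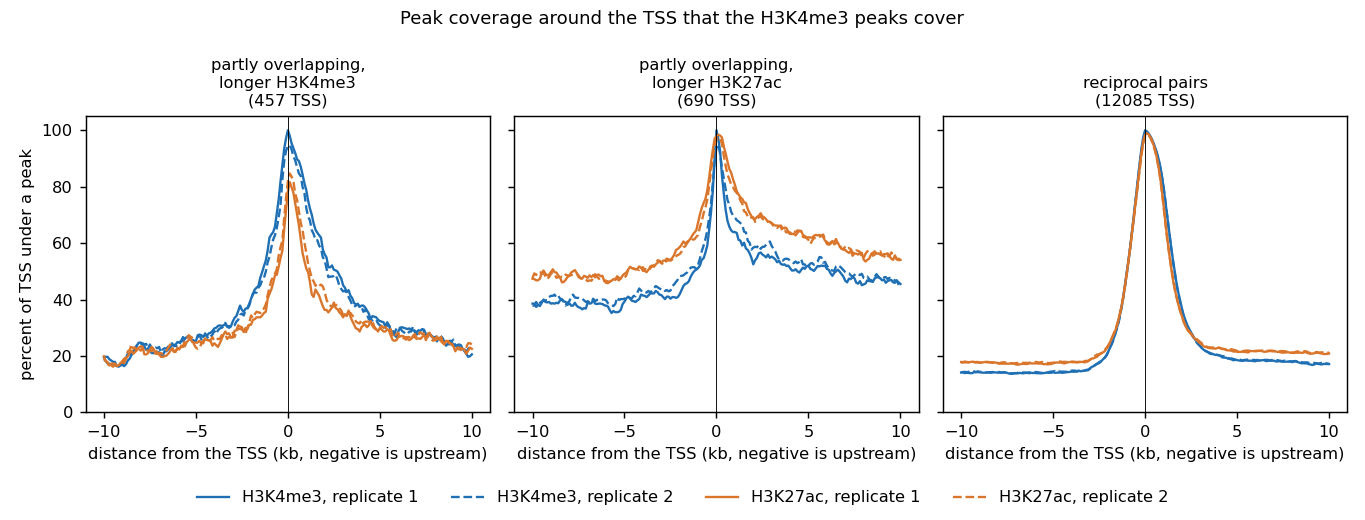
Percent of TSS under an H3K4me3 peak (blue) or an H3K27ac peak (orange) by distance from the TSS in kb (negative is upstream), in replicate 1 (solid) and replicate 2 (dashed), for TSS covered by a peak with the longer H3K4me3 (457 TSS), with the longer H3K27ac (690 TSS) and by reciprocal pairs. At 2 kb downstream of the 457 TSS, H3K4me3 covers 56.0% and H3K27ac 36.3% in replicate 1, and at the 690 TSS the shares are 52.5% and 68.7%, an order that the split by the longer mark fixes.

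Over all strengths of H3K4me3, genes that start in a partial overlap had less transcript than genes that start in a reciprocal pair. Within 4 groups of H3K4me3 fold this held only for the weakest group. The 1147 genes with counts had library medians of 3.49, 3.37 and 2.22 TPM, and the 12077 genes of reciprocal pairs had 13.4, 17.6 and 13.3 TPM. In each library the genes of partial overlaps had the lower median. A gene of a partial overlap was the higher in 36.7% of comparisons (two-sided Mann-Whitney over genes, adjusted p = 2.80e-50). Over 1 TPM in all 3 libraries were 623 of the 1147 (54.3%), against 56.5% of all 21692 genes and 79.9% of genes of reciprocal pairs. Where the mean H3K4me3 fold was at most 23.1, the median was 0.426 TPM for 734 genes of partial overlaps and 1.302 TPM for 2468 of reciprocal pairs. In the stronger groups the order was the opposite, at 16.4 against 8.91 TPM up to 46.5 fold, 39.9 against 21.6 TPM up to 66.4 fold and 53.6 against 33.9 TPM above that. These medians carry no test, and the groups of fold were set on all genes whose TSS an H3K4me3 peak covers. Fold was not matched within the weakest group, at medians of 6.21 for partial overlaps and 10.4 for reciprocal pairs. In the stronger groups the H3K4me3 peaks of partial overlaps were longer, at medians of 4316.5, 5175 and 5517 bp against 2440, 2706 and 3072 bp.

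Between the forms, genes with the longer H3K4me3 had library medians of 2.60, 2.63 and 1.49 TPM (457 genes), against 4.25, 4.50 and 2.75 TPM with the longer H3K27ac (690 genes). A gene with the longer H3K4me3 was the higher in 45.6% of comparisons (adjusted p = 0.0112), and the difference missed the threshold for peaks partly overlapping in both replicates (adjusted p = 0.0813). With the gene models limited to those with a symbol it was larger, at medians of 3.07 TPM for the longer H3K4me3 and 11.5 TPM for the longer H3K27ac (adjusted p = 6.36e-07). Genes with a symbol include tRNA models, more of them with the longer H3K4me3, while the RNA libraries were made with an mRNA kit. The part of these models in the difference was not tested. The strength of H3K4me3 moved with transcript. Where the mean H3K4me3 fold enrichment was at most 23.1, 26.7% of the genes with the longer H3K4me3 were over 1 TPM in all libraries, 41.8% with the longer H3K27ac and 46.4% of those with reciprocal pairs. Between 46.5 and 66.4 fold the shares were 94.6%, 93.9% and 92.7%. Of the 1147 genes 734 were in the weakest group and 99 in the strongest, against 2468 and 3241 of the 12077.

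**Figure D4:**
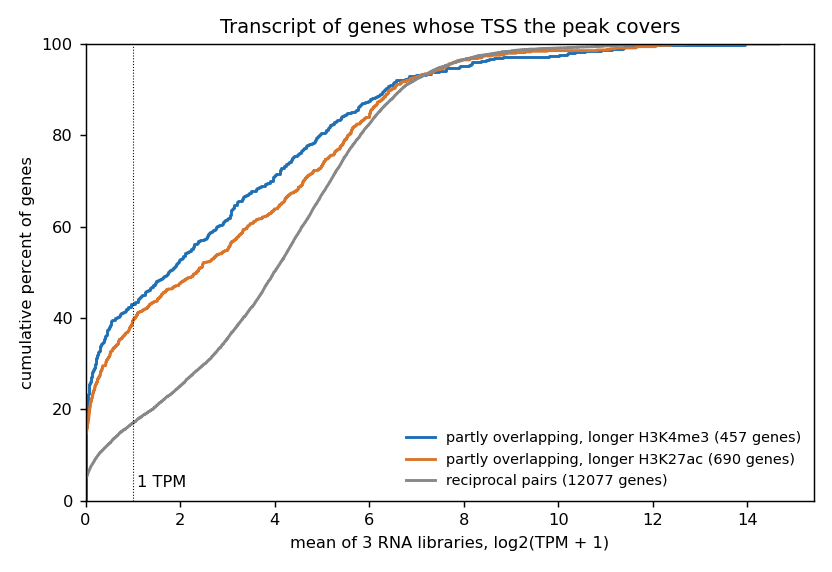
Cumulative percent of genes (vertical axis) against the mean of 3 RNA libraries as log2(TPM + 1) (horizontal axis), for genes whose TSS lies under a partly overlapping peak with the longer H3K4me3 (457 genes) or the longer H3K27ac (690 genes) or under a reciprocal pair (12077 genes). Both partly overlapping sets lie left of the reciprocal pairs at low values, where 54.3% of their genes against 79.9% are over 1 TPM in every library, and all 3 curves run close together at high values.

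The lists of gene groups are described by which mark was longer at the TSS, and differences between lists were not tested. Of 14169 genes with a symbol, 2.48% had a TSS under a partly overlapping peak with the longer H3K4me3 and 3.3% under one with the longer H3K27ac. Shares of the lists are descriptions beside these percentages. A gene in more than 1 list counts in each.

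HOX genes, which pattern the body axis and the limbs, stood on the side of the longer H3K4me3: 11 of 29 annotated members (37.9%) had such a TSS, 0 had the longer H3K27ac and 13 were in a reciprocal pair. HOXA13 is an example from the far end of its cluster, on scaffold 9 from 54765216 to 54770236 of the study's assembly. Its H3K4me3 peak measured 5021 bp in replicate 1 and 4126 bp in replicate 2, with folds of 13.5 and 27.8, over H3K27ac peaks of 1040 and 2026 bp with folds of 7.06 and 5.37. Its RNA was at 0 counts in all 3 libraries. HOXC13 had H3K4me3 peaks of 3407 and 4824 bp over H3K27ac peaks of 1099 and 1292 bp, at 0.610, 0.816 and 0.612 TPM. HOXD1 was the highest of the 11, at 5.09, 2.65 and 0.374 TPM, which spread over more than 10 times between libraries. On replicate 2 intervals 4 of the 11 were again partial.

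Other regulators of body patterning followed the same split, with 12 of 58 (20.7%) under a longer H3K4me3 peak and 0 under a longer H3K27ac peak. Most of the list, 39 of 58, was in a reciprocal pair. Some of them were transcribed in the face. IRX2, an Iroquois homeobox factor, stood at 97.7, 91.4 and 94.5 TPM with H3K4me3 peaks of 5227 and 5153 bp in replicates 1 and 2, and its H3K27ac partner measured 2198 and 5195 bp, so that it was a reciprocal pair in replicate 2. GATA3, a zinc finger factor of epithelium and neural crest derivatives, had H3K4me3 peaks of 3287 and 4714 bp over H3K27ac of 1201 and 1230 bp, at 24.6, 32.5 and 26.3 TPM. EMX2, a homeobox factor of the forebrain and urogenital tract, had H3K4me3 peaks of 11028 and 5674 bp over H3K27ac partners of 3236 and 3074 bp and was a reciprocal pair in replicate 2, at 21.3, 14.6 and 8.34 TPM. LHX1 and NKX2-1, factors of head organizer and of forebrain, thyroid and lung, had no more than 0.0306 TPM in any library, with H3K4me3 peaks of 5886 and 3308 bp. On replicate 2 intervals 7 of the 12 were again partial.

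Regulators of facial mesenchyme and neural crest gave 8 of 46 (17.4%) under a longer H3K4me3 peak and 1 (2.17%) under a longer H3K27ac peak, while 31 were in a reciprocal pair. These genes were expressed. SIX2, a homeobox factor of frontonasal mesenchyme, had H3K4me3 peaks of 11325 and 13405 bp over H3K27ac partners of 5922 and 4467 bp, with RNA at 42.4, 40.6 and 33.9 TPM. SNAI2, which drives the delamination of neural crest cells, had 3116 and 3138 bp over 1319 and 1596 bp, at 73.1, 87.7 and 82.9 TPM. DLX3, a distal-less factor of the face and skin, had 5911 and 5359 bp over 2428 and 2491 bp, at 36.4, 71.1 and 54.9 TPM. OSR2, a factor of palatal shelf growth, had 9373 and 5034 bp over 3202 and 3254 bp, at 41.1, 37.1 and 27.1 TPM, and ZEB2, a repressor of epithelial genes, had 1920 and 1348 bp over 555 and 510 bp, at 11.1, 15.3 and 8.53 TPM. PRRX2 and FOXF1 were the other members of this list with the longer H3K4me3 besides SOX9. The exception was PAX7, a factor of neural crest and muscle precursors, whose H3K27ac partner measured 5861 bp in replicate 1 and 1130 bp in replicate 2, beside H3K4me3 of 2063 and 2007 bp. On replicate 2 intervals 5 of the 9 were again partial.

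Cartilage and bone genes shared the pattern in 3 of 23 cases, while 11 were in a reciprocal pair. SOX9, the chondrocyte master regulator, had H3K4me3 peaks of 5304 and 5147 bp in replicates 1 and 2 over H3K27ac partners of 2612 and 2491 bp, and 12.1, 19.0 and 17.7 TPM. At SOX9 the H3K4me3 peak overlapped 3 H3K27ac peaks that together covered 80.2% of it. COL2A1 and COL11A1, fibrillar collagens of cartilage, lay just under the limit (49.1% and 48.4%) and became reciprocal pairs in replicate 2. Their RNA was highest in the same library, COL2A1 at 36.4, 90.9 and 27.6 TPM and COL11A1 at 16.7, 45.6 and 12.2 TPM. COMP, a cartilage matrix protein, had the longer H3K27ac in replicate 1 (3561 bp against 1617 bp of H3K4me3) and the longer H3K4me3 in replicate 2. Of craniofacial signalling genes, WNT3 and NOG were the 2 of 37 with a partial overlap, both with the longer H3K4me3, and 32 were in a reciprocal pair. WNT3, a ligand needed for limb and lip formation, had H3K4me3 peaks of 2072 and 1897 bp over H3K27ac of 803 and 704 bp, and NOG, a BMP antagonist, had 6617 and 6713 bp over 3463 and 3391 bp. On replicate 2 intervals WNT3 was again partial and NOG was a reciprocal pair.

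Neuronal markers gave 4 of 12 (33.3%) under a longer H3K4me3 peak, namely GAP43, SNAP25, ELAVL3 and ELAVL4, and 0 under a longer H3K27ac peak. As many, 4, were in a reciprocal pair, 1 had H3K4me3 without H3K27ac and 3 had no H3K4me3 peak at the TSS. SNAP25, a synaptic fusion protein, had H3K4me3 peaks of 1382 and 1726 bp over H3K27ac of 416 and 300 bp with folds of 3.35 and 2.84, at 9.71, 12.7 and 11.2 TPM. GAP43, a growth cone protein, had 2365 and 1104 bp over 755 and 775 bp, at 29.8, 28.0 and 24.2 TPM. ELAVL3 had the longer H3K4me3 in replicate 1 and the longer H3K27ac in replicate 2. Of the 4 with a partial overlap, only SNAP25 was again partial on replicate 2 intervals.

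Blood and immune markers lay on the opposite side: 5 of 15 (33.3%) were under a longer H3K27ac peak, 0 under a longer H3K4me3 peak and 3 in a reciprocal pair. GATA1, the regulator of red cell formation, had an H3K27ac peak of 22842 and 22493 bp with folds of 32.6 and 30.3. Its matched H3K4me3 peaks measured 6622 and 3930 bp with folds of 5.03 and 5.02, and its RNA stood at 23.8, 20.1 and 21.1 TPM. In gene direction the matched H3K4me3 peak of replicate 2 ran from -4301 to -372 bp, short of the TSS. Another H3K4me3 peak of replicate 2, of 4.66 fold, covered the TSS from -90 to 1268 bp. The same H3K27ac peak overlapped 3 H3K4me3 peaks, and the strongest of them began 1613 bp downstream of the GATA1 TSS in replicate 1 and 1621 bp in replicate 2, with folds of 31.99 and 41.43. SPI1, the regulator of myeloid cells, had 20318 and 20319 bp of H3K27ac with folds of 36.0 and 38.6, over H3K4me3 of 2748 and 2671 bp with folds of 3.59 and 5.22. A single H3K27ac peak at SPI1 overlapped 9 H3K4me3 peaks, and the strongest of them lay away from the SPI1 TSS. In gene direction it ran from -16649 to -13475 bp in replicate 1 and from -16812 to -14103 bp in replicate 2, with folds of 25.9 and 25.8. CSF1R, the macrophage growth factor receptor, and TYROBP, an adaptor of myeloid receptors, had H3K27ac of 1486 and 963 bp and of 5465 and 4886 bp, with H3K4me3 folds no higher than 5.03. CD79A, a B cell receptor subunit, had H3K27ac of 5184 and 9089 bp over H3K4me3 of 642 and 2715 bp, and 0.0927, 0.338 and 0.103 TPM. GATA1, SPI1 and CD79A were again partial on replicate 2 intervals. TIE1, an endothelial receptor, was the 1 of 10 endothelial markers with a partial overlap, with H3K27ac of 12253 and 6893 bp over H3K4me3 of 3894 and 6558 bp. It was a reciprocal pair in replicate 2. Each of these genes belongs to a cell type that can be a minority of a pool, and the part of cell number in peak length was not tested.

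**Figure D5:**
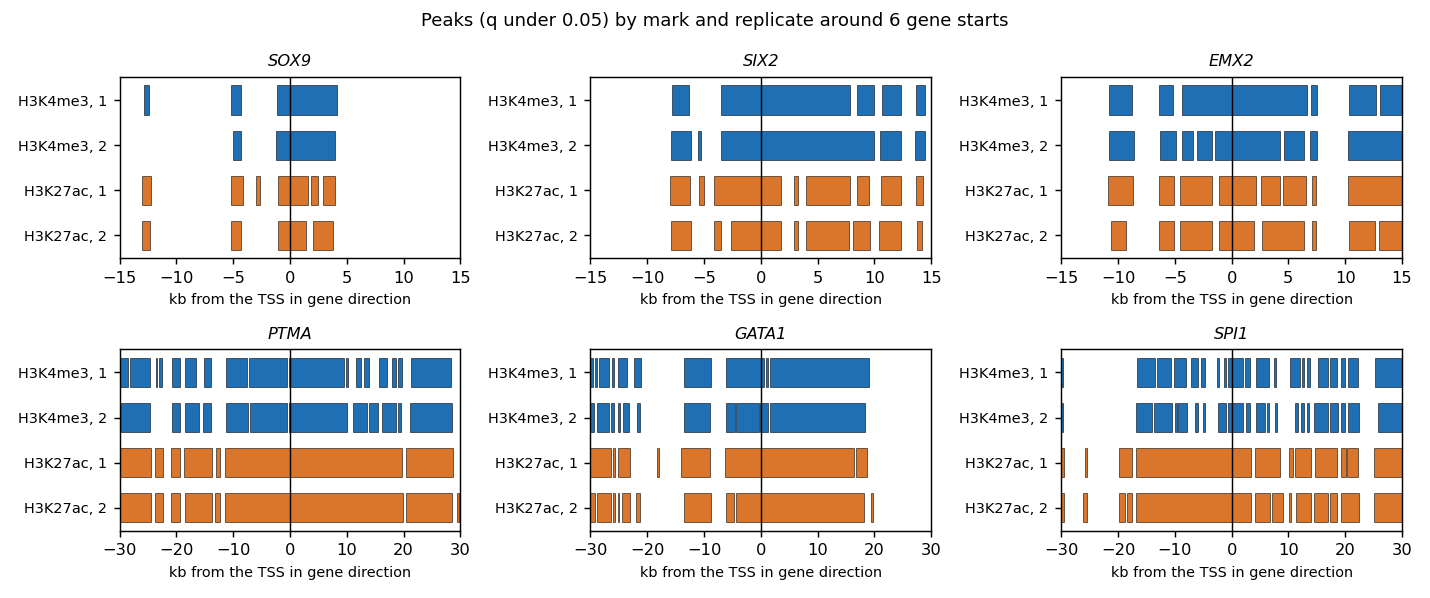
Peaks of H3K4me3 (blue) and H3K27ac (orange) in replicates 1 and 2 (rows), drawn in kb from the TSS in gene direction, at 3 genes with the longer H3K4me3 (SOX9, SIX2 and EMX2, upper row, EMX2 being a reciprocal pair in replicate 2) and 3 with the longer H3K27ac (PTMA, GATA1, SPI1, lower row, on a wider axis). The H3K4me3 peak spans several H3K27ac peaks in replicate 1 at the upper genes, and 1 long H3K27ac peak spans several H3K4me3 peaks in both replicates at the lower genes.

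Among genes with a symbol, the 10 most abundant transcripts of the set were PTMA, PPIA, muscle genes and ribosomal proteins, and gene models without a symbol, not described here, stood among them. MYLPF and TNNI2, the light chain and troponin I of fast muscle, stood at 5311 ± 841 and 4354 ± 802 TPM (SD, n = 3 libraries) with the longer H3K27ac, and ACTA1, skeletal muscle actin, at 3910 ± 629 TPM with the longer H3K4me3. TNNI2 was this abundant with H3K4me3 folds of only 7.09 and 9.46. All 3, the myogenic list's members besides PAX7, became reciprocal pairs in replicate 2. Of 48 annotated ribosomal protein genes 6 had a partial overlap and 40 a reciprocal pair. RPS3 kept the longer H3K4me3, at 3872 and 5166 bp over 1464 and 2755 bp, and RPS19 kept the longer H3K27ac, at 14180 and 14015 bp over H3K4me3 of 5447 and 5540 bp. RPL4, RPL6 and RPL18 became reciprocal pairs in replicate 2. Ribosomal protein and PPIA sequences have near-identical copies in many genomes, so their counts and peaks are uncertain to that extent. Of the 27 annotated genes on the surface epithelium list, only SFN, a keratinocyte 14-3-3 protein at 2206, 1647 and 2823 TPM, had a partial overlap, with H3K27ac of 18394 and 13986 bp over H3K4me3 of 6328 and 7161 bp. SFN was a reciprocal pair in replicate 2. Of 18 enzymes of the marks themselves 16 were in a reciprocal pair and only KDM5C, an H3K4 demethylase, had a partial overlap. Its H3K27ac measured 16966 and 21583 bp over H3K4me3 of 4418 and 16119 bp, and it was a reciprocal pair in replicate 2.

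Among H3K4me3 peaks with a shorter H3K27ac partner that cover the TSS of a gene with a symbol, the longest covered a gene-dense stretch. It measured 49165 bp in replicate 1 and 42680 bp in replicate 2, on scaffold 204 from 223064 to 272228, and covered 8 TSS, namely those of OTUD5, KCND1, GRIPAP1, TFE3, PIM2, PQBP1, SLC35A2 and TIMM17B. Its H3K27ac partner measured 24317 and 22230 bp. The RNA of these 8 genes ran between a mean of 5.83 TPM for KCND1, a potassium channel, and 178 TPM for OTUD5, a deubiquitinase. The GATA1 peak lies 23.5 kb beyond its end, with other peaks of both marks between them. The opposite forms thus stood near each other on this scaffold. NDUFA10, a subunit of respiratory complex I, had peaks of 25563 and 9114 bp and HNRNPL, a splicing regulator, of 20113 and 18422 bp. Beyond 3 kb from a TSS such peaks reached 28062 bp. PAX6, the eye and nasal placode regulator, followed HNRNPL in length among these TSS peaks and is named after its values were seen, with 17681 and 16616 bp over H3K27ac of 5237 and 8066 bp and 5.24, 2.78 and 0.792 TPM. OTUD5, NDUFA10, HNRNPL and PAX6 were again partial on replicate 2 intervals.

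The longest H3K27ac partner measured 55168 and 54834 bp, at RELA, a subunit of NF-kB. Its H3K4me3 peak measured 11664 bp in replicate 1 and 56432 bp in replicate 2, so the same locus was a reciprocal pair in replicate 2. DAGLA, a lipase of endocannabinoid synthesis, had H3K27ac of 43262 and 41594 bp with folds of 25.3 and 20.2 over H3K4me3 of 11030 and 14448 bp with folds of 7.19 and 7.50. The TMEM53 and ARMH1 starts shared H3K27ac of 42469 and 42826 bp over H3K4me3 of 4102 and 7701 bp, and PACSIN3, a membrane-shaping protein of muscle, had 36659 and 37570 bp and was a reciprocal pair in replicate 2. BLOC1S3, TRAPPC6A and NKPD1 started under 1 H3K27ac peak of 33429 and 33683 bp. PTMA, prothymosin alpha, a nuclear protein of dividing cells, was both strong and abundant, with H3K27ac of 31081 and 31242 bp (folds 94.8 and 75.2) over H3K4me3 of 9756 and 10236 bp (folds 120 and 142), and 5169, 3887 and 3672 TPM. That H3K27ac peak overlapped 9 H3K4me3 peaks.

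By mean fold over both replicates, PTMA had the strongest H3K4me3 among peaks at the TSS of a gene with a symbol. In this ranking ZNF207, a spindle assembly factor, had folds of 109 and 106, ZSWIM8, a ubiquitin ligase substrate receptor, 107 and 120, PUM2, an RNA-binding repressor, 94.5 and 122, and ATP5F1D, a subunit of ATP synthase, 92.4 and 123. At ATP5F1D the H3K27ac partner had folds of only 6.71 and 7.90, and at ZSWIM8 of 8.64 and 8.97. Both genes kept the longer H3K4me3 and the partial overlap in replicate 2, with RNA at 368 ± 63.0 TPM for ATP5F1D and 90.0 ± 8.76 TPM for ZSWIM8 (SD, n = 3). ULK1, SEPTIN7, PEX14, TMCC1 and RPS3 completed the 10 strongest TSS peaks, with replicate 1 folds of 93.4 to 101.

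Away from the TSS, a few partly overlapping peaks were stronger than the median reciprocal pair at a TSS, which had H3K4me3 folds of 42.8 and 50.6. The strongest lay on scaffold 17 from 2132100 to 2146346, 25.4 kb from the TSS of DENND6B, and measured 14247 and 11951 bp with H3K4me3 folds of 89.5 and 122. On the same scaffold, from 10916235 to 10922456, a peak of 6222 and 6096 bp with folds of 82.4 and 110 lay 151 kb from the TSS of MB, myoglobin. Near MOB2 and EXOC6B, strong peaks (79.1 and 89.0 fold, 71.9 and 94.6 fold) became reciprocal pairs in replicate 2, as did the peak near MB. A peak near CACNA1D, on scaffold 2 from 53432907 to 53436682, had folds of 65.1 and 85.5 for H3K4me3 and 4.74 and 6.95 for H3K27ac. Such distances run to annotated starts with a symbol, and the models were lifted from the Tasmanian devil, so a start missing from them counts as distant.

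Other distant peaks were chosen for the highest H3K27ac fold. Near JAK1, a cytokine receptor kinase, H3K27ac reached 101 and 94.2 fold over H3K4me3 of 4.32 and 5.87 fold, 39.5 kb from the TSS on scaffold 19. Near BCL6, a transcriptional repressor, H3K27ac reached 117 and 67.2 fold at 3.35 kb, over H3K4me3 of 21.4 and 58.4 fold and 3783 and 18425 bp, and the place was a reciprocal pair in replicate 2. The peaks nearest to TMEM80 and EPS8L2 shared 1 H3K27ac peak of 13400 bp with folds of 92.0 and 82.5. The peak nearest to TEX44 lay on an H3K27ac peak of 28150 and 25837 bp that overlapped 9 H3K4me3 peaks and ended 70.5 kb before that of PTMA.

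By nearest TSS, 6769 genes with a symbol had at least 1 partly overlapping peak, with a median of 2, and 678 had at least 10. MGMT had the most (100 peaks), followed by AUTS2 (89), DYSF (88), KLHL29 (79), ELAVL4 (76) and EXOC6B (76), genes named here after their counts were seen. At each of them most of these peaks had the longer H3K27ac: the longer H3K4me3 was found at 15 for KLHL29 and at no more than 3 for the others. Long genes with remote neighbours collect more peaks under this rule, and counts were not adjusted for it. ELAVL4 shows both forms, since its own TSS lay under an H3K4me3 peak of 5387 and 5507 bp over H3K27ac of 2488 and 3517 bp.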

How the data were processed

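Histone marks were measured in 2 ChIP-seq replicates per mark, and RNA in 3 libraries. For ChIP-seq the authors used cutadapt (version 1.9.1) for trimming, Bowtie2 (version 2.3.5.1) for alignment to the study's dunnart assembly, SAMtools (version 1.9) and Picard (version 2.23.1) for filtering, and MACS2 (version 2.1.1) with input as control for peaks. Each deposited peak has a fold enrichment (a ratio to input) and significance on a -log10 scale, once for p and once for q. Its display score was not used. For RNA the authors used Trimmomatic (0.39), HISAT2 (2.21) and featureCounts of Subread (2.0.1). The deposited table holds unscaled counts per gene on Tasmanian devil models lifted to the assembly, and 17419099, 16358621 and 16096971 counts per library. TPM was computed from them and exon length. The libraries carry no replicate number in the table. The 11 genes broken over 2 lines kept their TSS, and their counts were not used.

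Peaks were kept at q under 0.05. The H3K27ac partner is the peak sharing most bases. The TSS is the outermost exon end in the direction of the gene. Overlaps were made with bedtools (2.31.1), and tests with scipy (1.17.1) in Python (3.11.15), with Benjamini-Hochberg adjustment over 6 tests. R (4.3.3) with edgeR (4.0.16) gave TMM factors for 1 alternative scaling. Overlap classes, replicate matches and nearest TSS were tested on simulated data, with 6000 of 6000, 6000 of 6000 and 1000 of 1000 recovered.

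The set of peaks, the gene lists and the tests were chosen with earlier results of these data known. Named genes are, among peaks covering the TSS of a gene with a symbol, the 10 with the longest H3K4me3 or H3K27ac peak, the 10 of highest TPM and of highest H3K4me3 fold, up to 4 of highest and 2 of lowest TPM per gene list, and the 5 on either side of the 50% limit. Among peaks over 3 kb from a TSS they are the 5 strongest per mark. Alternatives changed the q threshold, both overlap rules, the base replicate, the partner, the gene models and the scaling of RNA, and left out replicates in turn. Sequences were not used here. A few named items are not reported here.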

Additional observations from a re-analysis of the deposited data

How the results depend on the processing

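No paired analysis was possible because every result is a count or a test over peaks or genes within pools, with no groups of samples to pair. The 13 results were recomputed under 136 alternatives, of which 108 kept the direction and the side of the threshold (70 of 76 for tests, 38 of 60 for counts). The 28795 peaks became 12199 when replicates had to share 50% of both lengths and 13230 when the class had to be the same in both replicates, an alternative chosen after seeing the data. Under these 2 settings, peaks with the longer H3K4me3 numbered 1981 and 1519 (4230 in the report), with H3K4me3 inside H3K27ac 8054 and 9264 (19020), with H3K27ac inside H3K4me3 1441 and 979 (2662), and at a TSS 586 and 439 (1030). The replicate match at both lengths gave 7071 peaks again partial and 10695 with the same longer mark. With the reciprocal limit at 40% and 60%, the longer H3K4me3 gave 2076 and 6980, H3K27ac inside H3K4me3 1313 and 4354, peaks at a TSS 597 and 1628, and peaks again partial 8234 and 20009.

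Without a replicate partner, replicate 2 alone and replicate 1 alone gave 40866 and 40338 peaks, 5967 and 7222 with the longer H3K4me3, 25769 and 24162 with H3K4me3 inside H3K27ac, 3429 and 4170 with H3K27ac inside H3K4me3, and 1027 and 1127 at a TSS. The distance comparisons ranged from 0.515 to 0.519 against reciprocal pairs, 0.322 to 0.323 against H3K4me3 alone and 0.564 to 0.587 between the forms. Leaving out a replicate or an RNA library gave 0.349 to 0.371 for TPM against reciprocal pairs, 0.437 to 0.458 between the forms and 54.8% to 58.6% of H3K27ac centres downstream.

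Among genes over 1 TPM in every library, a filter on the measure compared, the TPM comparison with reciprocal pairs turned to 0.505 (adjusted p = 0.687) and that between the forms was 0.460 (adjusted p = 0.143). The comparison between the forms was also lost with the stricter replicate match, at 0.465 (adjusted p = 0.144), and for the same class in both replicates, at 0.454 (adjusted p = 0.0813). The share of H3K27ac centres downstream turned to 49.7% at a reciprocal limit of 60% (adjusted p = 0.815) and was 52.4% with the stricter match (adjusted p = 0.295). A reciprocal limit of 60% adds peaks of more equal length by construction. For the other changes the cause was not tested. The lists give no ChIP depth, which limits statements on peak length, and 2 pools give no spread between animals.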
